A study of Danio rerio with 12 samples.

Results

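The skap1 locus was taken as the skap1 gene body on chromosome 12 of the zebrafish Zv9 assembly (chr12:28728026-28777933, plus strand) with 50 kb on each side (chr12:28678026-28827933). Peaks of all 12 ATAC-seq lists were merged into 245646 regions of accessible chromatin where they overlapped, and 52 of these regions lay in the locus. They had a median width of 302 bp. Each is named here by the distance of its middle from the start of skap1, so that the +12.5 kb region lies inside the gene and the −15.6 kb region before it. Of the 52 regions, 24 lay before the gene, 13 within the gene body and 15 after it. The window alone chose the regions, and the locus was chosen with earlier results and its RAR sites known.

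skap1 encodes an adaptor protein that is best known from T cells, where it links antigen receptor signalling to integrins. It is the neighbour of the hoxbb cluster, whose homeobox genes hoxb1b and hoxb5b give cells their position along the anterior-posterior axis. Retinoic acid (RA) is a classical inducer of such hox genes. It binds RA receptors (RAR), which sit on DNA as heterodimers with RXR and exchange corepressors for coactivators when they carry the ligand. ATAC-seq uses a transposase that inserts adapters where DNA is free of nucleosomes, and a peak marks a place where such insertions pile up.

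Embryos came from incrosses of Tg(sox17:GFP) zebrafish, in which a sox17 promoter drives GFP in endodermal cells, and were kept at 23 °C. They received RA, the pan-RAR inverse agonist BMS493 or the solvent DMSO from the 2-cell stage to the 3-somites stage. The endodermal conditions were GFP+ cells sorted after RA, BMS493 or DMSO, and the non-endodermal (NE) condition was GFP- cells sorted after DMSO, with 3 samples each. A sort by this transgene defines endoderm by GFP alone, and NE is a mixture of every other cell type of the embryo.

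The headers of the lists gave 11056595 to 22930744 tags kept per sample after removal of duplicates, and the lists held 51301 to 143755 peaks, the shortest being that of DMSO replicate 1. The pileup is the number of extended tags at a summit. To compare lists of different depth, each pileup was turned into its percentile rank within its own list (100 for the tallest peak), and a sample without a peak in a region received 0. The sort was checked at the loci of the endodermal genes gata6 and sox32, where 4 of 26 and 5 of 21 tested regions ranked higher in DMSO endoderm than in NE (limma, Benjamini-Hochberg adjusted p under 0.05) and 0 ranked lower at either locus. Over all regions tested in the same way, 2.16% ranked higher in DMSO and 4.91% lower. By calls alone, 4 of 29 regions at gata6 and 4 of 28 at sox32 had a peak in every DMSO and no NE sample. The reverse was seen in 0 at gata6 and 1 at sox32. Regions without an NE call passed the filter on calls only through endodermal samples and rest on the rank of 0, so that this check is no independent support.

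Across the locus, RA samples called 42, 37 and 31 of the 52 regions, BMS493 samples 18, 32 and 22, DMSO samples 23, 34 and 35, and NE samples 24, 37 and 30. The means were 36.7 ± 5.51 in RA, 24.0 ± 7.21 in BMS493, 30.7 ± 6.66 in DMSO and 30.3 ± 6.51 in NE (SD, n = 3 each). RA and BMS493 overlapped by a single pair of samples, since BMS493 replicate 2 called more regions than RA replicate 3. This count moved with the length of the list, and BMS493 replicate 2 had the longest list of its condition, with 115656 peaks. Per 100000 listed peaks, the locus held 36.0 to 39.3 called regions in RA, 23.8 to 27.7 in BMS493, 28.8 to 44.8 in DMSO and 25.1 to 28.9 in NE. The value of 44.8 belonged to DMSO replicate 1, and the other DMSO samples lay below all RA samples.

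**Figure D1:**
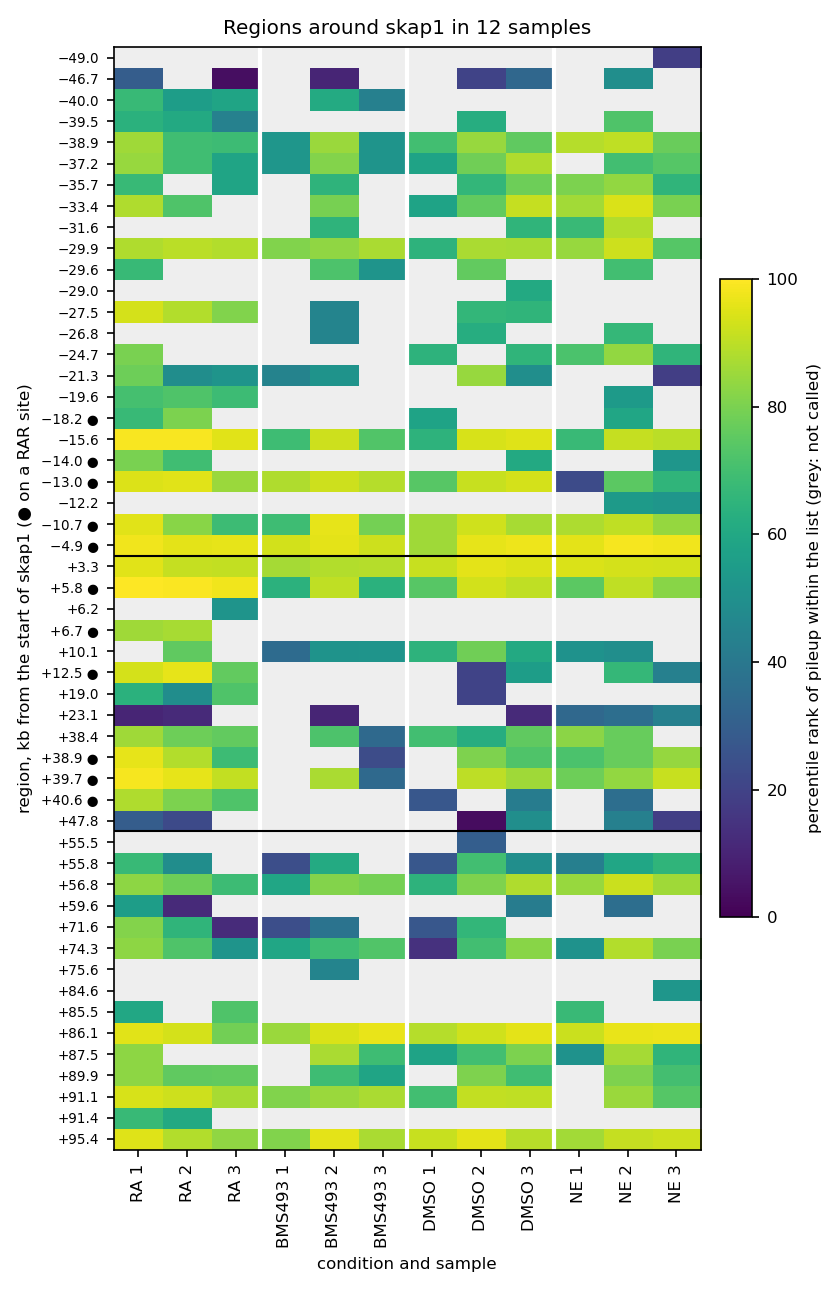
Percentile rank of the pileup within each list (colour, 0 to 100, grey where no peak was called) for the 52 regions (rows, in kb from the start of skap1) in the 12 samples (columns). Black lines bound the gene body and dots mark the 11 regions on a RAR site. Within the gene body, RA samples called 9 to 12 of the 13 regions and BMS493 samples 3 to 6. The +6.2 and +6.7 kb regions there were called in RA lists alone.

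The gene body held 13 regions, of which RA samples called 11, 12 and 9, BMS493 samples 3, 6 and 6, DMSO samples 5, 9 and 10, and NE samples 7, 10 and 7. All RA samples lay above all BMS493 samples there. The regions at +6.2 and +6.7 kb were called in RA lists alone, so that they could add only to the RA counts. No share over all regions stands beside these counts. They were also not scaled to the length of the lists, which held 83515 to 116700 peaks in RA and 75611 to 115656 in BMS493. After the gene, RA samples called 12, 10 and 8 of 15 regions and BMS493 samples 7, 10 and 7, so that these conditions overlapped.

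A common set of open regions was present in every condition. All 12 lists called 12 of the 52 regions (23.1%), against 11.6% of the regions of the whole series. Of these, 6 lay before the gene, 2 within it and 4 after it, and their median ranks ran from 71.2 to 96.2. They were found at −38.9, −29.9, −15.6, −13.0, −10.7 and −4.9 kb, at +3.3 and +5.8 kb, and at +56.8, +74.3, +86.1 and +95.4 kb. RA samples all called 27 of the 52 regions and BMS493 samples 15, with 19 in DMSO and 20 in NE, while 8 regions had no call in RA, 19 none in BMS493, 10 none in DMSO and 10 none in NE. These counts per condition were not scaled to the length of the lists. No share over all regions stands beside them, so that they do not mark out the locus. Another 9 regions were called in only 1 or 2 lists. Of these, 3 were called only in RA, 1 only in BMS493, 2 only in DMSO and 3 only in NE. No region covered the start of skap1 itself or that of mir-10a, the microRNA gene between hoxb5b and hoxb1b.

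The locus carried many RAR sites. The sites were taken, by position only, from the ChIP-seq list of the study, which was made with a tagged RAR in whole embryos given RA and lists 165 sites on chromosome 12. The locus held 14 of these, and 8 lay within skap1. An ATAC-seq region overlapped 11 of the 14 sites, 6 of them within the gene, and each of the 11 sites met a region of its own. Thus 21.2% of the regions of the locus lay on a RAR site, beside 1.36% of the 8150 regions on chromosome 12, a difference that the choice of a locus with RAR sites fixed. Of the 3 sites without a region, the one at +5.2 kb had its nearest region 124 bp away, the one at +7.6 kb 613 bp away, and the one at −23.1 kb 1410 bp away.

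RA samples called 11, 11 and 8 of the 11 regions on RAR sites. BMS493 samples called 4, 5 and 6, DMSO samples 6, 7 and 9, and NE samples 6, 9 and 8. All RA samples thus lay above all BMS493 samples, whereas RA replicate 3 lay below DMSO replicate 3. The +6.7 kb region was called in RA lists alone and could add only to the RA counts. As for the gene body, these counts were not scaled to the length of the lists, and no share over all regions stands beside them. Within skap1 these regions formed a proximal group at +5.8, +6.7 and +12.5 kb and a distal group at +38.9, +39.7 and +40.6 kb.

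**Figure D2:**
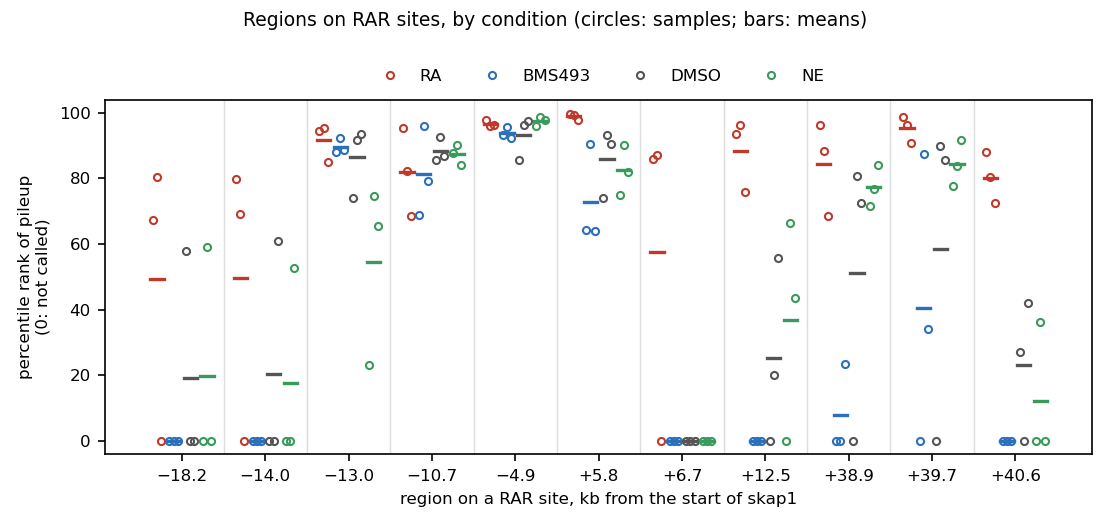
Percentile rank of the pileup (y axis, 0 where no peak was called) of the 11 regions on RAR sites (x axis, kb from the start of skap1) by condition, with circles for samples and bars for means of 3 samples. The regions at −13.0, −10.7, −4.9 and +5.8 kb were called in all 12 lists, and those at +12.5 and +40.6 kb in every RA and no BMS493 list.

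The +12.5 kb region (chr12:28740350-28740716) lay in intron 4 of 12 of skap1, on a RAR site that the study places in a non-coding element conserved from fish to mouse. Its pileup reached 34, 35 and 16 tags in RA samples, no peak was called in any BMS493 sample, DMSO replicates 2 and 3 gave 8 and 12 tags, and NE replicates 2 and 3 gave 17 and 8 tags. As ranks these were 93.4, 96.3 and 75.8 in RA, 0 in every BMS493 sample, 0, 20.2 and 55.7 in DMSO, and 0, 66.5 and 43.7 in NE. Every RA sample stood above every sample of the other conditions. The summits of the RA peaks lay 51 to 63 bp before the middle of the RAR site.

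The +40.6 kb region (chr12:28768483-28768785) lay in intron 11 of 12, on the RAR site nearest to the end of the gene. Its ranks were 88.1, 80.3 and 72.5 in RA, 0 in every BMS493 sample, 27.1, 0 and 42.2 in DMSO, and 0, 36.2 and 0 in NE. Here too all RA samples stood above all others. The summits of the RA peaks lay 113 to 234 bp from the middle of this site, which was 729 bp wide.

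Its neighbours in the same intron were less sharply divided. The +38.9 kb region (chr12:28766670-28767225) ranked 96.2, 88.3 and 68.6 in RA, 0, 0 and 23.4 in BMS493, 0, 80.8 and 72.6 in DMSO, and 71.6, 76.9 and 84.1 in NE. The +39.7 kb region (chr12:28767488-28767879) ranked 98.7, 96.3 and 90.8 in RA, 0, 87.5 and 34.3 in BMS493, 0, 89.9 and 85.6 in DMSO, and 77.8, 83.8 and 91.7 in NE. Both were called in all NE samples, and RA stood above BMS493 without overlap in each. RA and DMSO overlapped at +38.9 kb but not at +39.7 kb.

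The +5.8 kb region (chr12:28733559-28734049) was open in all conditions. It overlapped a RAR site that is also in the study's list of conserved elements. Its pileup was 59, 50 and 36 tags in RA, 13, 28 and 13 tags in BMS493, 14, 30 and 26 tags in DMSO, and 16, 31 and 16 tags in NE. All RA samples stood above every other sample. Per 1000000 tags kept, RA averaged 3.52 ± 0.794 and BMS493 1.23 ± 0.622 (SD, n = 3 each), a ratio of 2.87. For scale, the median of this ratio over the 40722 regions of the series called in all RA and BMS493 samples was 1.15, with a 5th to 95th percentile of 0.794 to 1.68. Against DMSO, which averaged 1.63 ± 0.483, the ratio was 2.16, beside a median of 1.11 over 35816 regions.

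The +6.7 kb region (chr12:28734651-28734882), between them and on another RAR site of the conserved elements, was called in RA replicates 1 and 2, with 25 and 23 tags at ranks of 85.8 and 87.0, and in no other list. With 2 calls it did not enter the fit, which took regions called in at least 3 samples.

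Before the gene, 5 regions on RAR sites filled the interval between hoxb5b and skap1. Of these, 3 were called in all 12 lists. The −4.9 kb region (chr12:28722695-28723595), 901 bp wide, ranked 95.8 to 97.9 in RA, 92.3 to 95.7 in BMS493, 85.6 to 97.5 in DMSO and 95.9 to 98.8 in NE. The −10.7 kb region (chr12:28717212-28717539) ranked 68.6 to 95.5 in RA, 68.8 to 96.1 in BMS493, 85.6 to 92.6 in DMSO and 84.1 to 90.3 in NE. RA and BMS493 overlapped at −10.7 kb, and at −4.9 kb every RA sample ranked just above every BMS493 sample. The −13.0 kb region (chr12:28714874-28715154) ranked 94.5, 95.4 and 85.1 in RA, 88.1, 92.2 and 88.8 in BMS493, 74.0, 91.8 and 93.6 in DMSO, and 23.0, 74.8 and 65.4 in NE.

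The other 2 were called in few lists. The −18.2 kb region (chr12:28709738-28709938) ranked 67.4, 80.3 and 0 in RA, 0 in every BMS493 sample, 57.9, 0 and 0 in DMSO, and 0, 59.2 and 0 in NE. The −14.0 kb region (chr12:28713984-28714147) ranked 79.8, 69.2 and 0 in RA, 0 in every BMS493 sample, 0, 0 and 60.8 in DMSO, and 0, 0 and 52.7 in NE. In both, RA replicate 3 had no peak, so that RA overlapped every other condition.

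Gene starts were looked up only for hoxb5b, mir-10a, hoxb1b, skap1 and psme3, and other genes of the window were not placed. Of these starts, those of hoxb5b and hoxb1b stood highest in RA. The −27.5 kb region (chr12:28700405-28700731) held the start of hoxb5b and ranked 93.4, 88.3 and 81.1 in RA, 0, 45.2 and 0 in BMS493, 0, 66.3 and 65.3 in DMSO, and 0 in every NE sample. The −15.6 kb region (chr12:28712154-28712611) held the start of hoxb1b and ranked 99.1, 98.9 and 95.5 in RA, 68.8, 92.2 and 72.8 in BMS493, 64.5, 94.0 and 95.3 in DMSO, and 67.7, 91.1 and 89.8 in NE. At both starts every RA sample ranked above every other sample, by a narrow margin over DMSO replicate 3 at hoxb1b. Per 1000000 tags kept, the hoxb1b start averaged 3.10 ± 0.792 in RA against 1.34 ± 0.646 in BMS493 and 1.74 ± 0.644 in DMSO (SD, n = 3 each), ratios of 2.31 and 1.78. Over the regions of the series called in all samples of both conditions, the medians of these ratios were 1.15 and 1.11. On this scale, all RA samples stood above all BMS493 samples in 10.8% of such regions and above all DMSO samples in 8.68%. The hoxb1b start did not pass the threshold in the fit of ranks (limma). Its mean rank in RA was higher by 19.9 than in BMS493 (adjusted p = 0.416) and by 13.3 than in DMSO (adjusted p = 0.880).

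The +55.8 kb region (chr12:28783642-28784055) held the start of psme3, which encodes an activator subunit of the proteasome and is read from the opposite strand. It ranked 67.4, 49.2 and 0 in RA, 23.9, 61.2 and 0 in BMS493, 27.1, 69.9 and 49.5 in DMSO, and 43.3, 59.2 and 65.4 in NE. All conditions overlapped at this start.

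**Figure D3:**
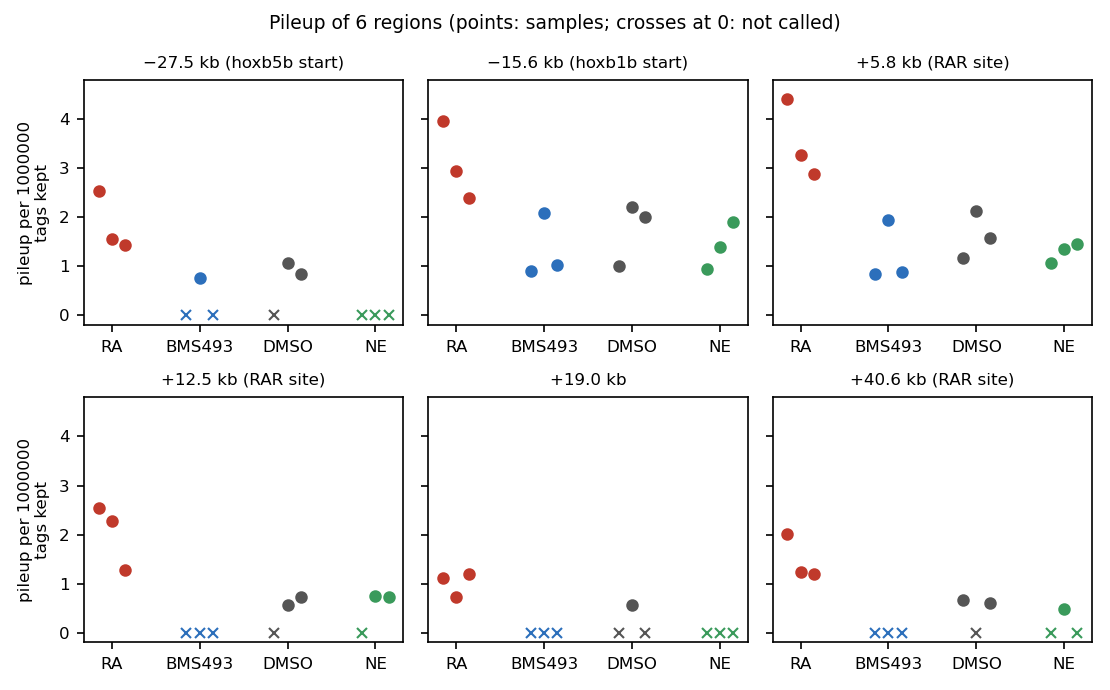
Pileup per 1000000 tags kept (y axis) in each sample, by condition, for the starts of hoxb5b and hoxb1b, the +19.0 kb region and 3 regions on RAR sites within skap1. Points are samples, and crosses at 0 mark samples in which no peak was called, whose signal is not listed. The +5.8 kb region and the hoxb1b start had a peak in every sample, with ratios of RA to BMS493 of 2.87 and 2.31.

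A further 4 regions off the RAR sites stood out by their calls. The +19.0 kb region (chr12:28746755-28747395), also in intron 4, ranked 63.9, 49.2 and 72.5 in RA, 0 in every BMS493 sample, 0, 20.2 and 0 in DMSO, and 0 in every NE sample. The −19.6 kb region (chr12:28708342-28708494), between mir-10a and hoxb1b, ranked 70.5, 72.6 and 68.6 in RA, 0 in every BMS493 and DMSO sample, and 0, 54.6 and 0 in NE. Both had a peak in every RA sample, and RA stood above every other sample.

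The remaining pair lay close together before hoxb5b. The −40.0 kb region (chr12:28687891-28688214) ranked 67.4, 55.5 and 58.4 in RA, 0, 61.2 and 43.7 in BMS493, and 0 in every DMSO and NE sample. The −39.5 kb region (chr12:28688343-28688627) ranked 63.9, 60.8 and 44.0 in RA, 0 in every BMS493 sample, 0, 62.2 and 0 in DMSO, and 0, 72.4 and 0 in NE. RA and BMS493 overlapped in the first of these, and RA and DMSO in the second.

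Differences between conditions were then tested with limma on the ranks of all 12 samples, over the 127026 regions of the series called in at least 3 samples, with Benjamini-Hochberg adjusted p-values. The locus had 43 of these regions. The pileup of sorted cells cannot tell fewer cells with an open region from less opening per cell.

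The first comparison, RA against BMS493, set the ligand against the inverse agonist. It called 4 of the 43 regions of the locus higher in RA (9.30%), against 0.625% of all regions tested, and 0 lower, against 0.131%. They were the +12.5, +19.0 and +40.6 kb regions within skap1, of which the first and the last lie on RAR sites, and the −19.6 kb region before hoxb1b. The mean rank was higher in RA by 88.5 at +12.5 kb (SE 18.9, 95% interval 48.6 to 128.4, adjusted p = 0.0387). It was higher by 80.3 at +40.6 kb (SE 16.2, adjusted p = 0.0304) and by 61.9 at +19.0 kb (SE 12.5, adjusted p = 0.0308). At −19.6 kb the difference was 70.5 (SE 15.5, adjusted p = 0.0416). In all 4 regions the 3 BMS493 samples had no call, so that these differences rest on the rank of 0 given to a missing peak. The +19.0 and −19.6 kb regions had 1 call each outside RA and so entered the fit, which required 3, only through their RA samples, so that their calls and the share of 9.30% are no independent support. With no filter on the number of samples the comparison called 0 regions of the locus, and with calls that cover 50% of a region or with ranks of −log10(q) it called 2. Leaving out any 1 of RA replicates 2 and 3, BMS493 replicates 1 to 3 and NE replicates 1 and 3 left 0 of them past the threshold, while leaving out RA replicate 1 or NE replicate 2 left 1, DMSO replicate 2 left 2, DMSO replicate 3 gave 3 and DMSO replicate 1 gave 6 calls. Over these 12 fits the differences ran from 84.6 to 94.8 at +12.5 kb and from 76.4 to 84.2 at +40.6 kb. They ran from 56.6 to 68.2 at +19.0 kb and from 69.5 to 71.5 at −19.6 kb. Every BMS493 rank in these regions was 0, so that only leaving out an RA sample could change the differences. Their narrow range is thus no sign of robustness.

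With the 4 called regions included, 14 of the 43 regions had an unadjusted p under 0.05 with RA higher (32.6%, against 5.64% of all regions tested) and 0 with RA lower (against 3.47%). Of the 14, those at −39.5, −19.6, −18.2, −14.0, +19.0 and +85.5 kb had too few calls outside RA for the filter. They entered the fit only through RA samples, so that this share is no independent support. Outside the 4 called regions, the lowest adjusted p-values (limma) were those of the +38.9 kb region (76.6, SE 18.3, adjusted p = 0.0604), the start of hoxb5b (72.6, SE 19.1, adjusted p = 0.0917) and the +5.8 kb region (26.0, SE 7.02, adjusted p = 0.101). Ranks did not overlap, with RA above, in 15 regions (34.9%, against 7.51%) and with RA below in 0 (against 4.48%). Of the 15, those at −39.5, −19.6 and +19.0 kb likewise entered only through RA. By calls alone, 5 of the 52 regions had a peak in every RA and no BMS493 sample (9.62%, against 1.22% of 245646 regions), namely those at −39.5, −19.6, +12.5, +19.0 and +40.6 kb. The reverse was seen in 0 regions, against 0.577%. Without RA replicate 3, whose list was the shortest of its condition, the 5 became 11.

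The median difference over the 43 regions was 19.9, against 0.0558 over all regions tested. It was 49.4 over the 10 tested regions on RAR sites, all positive, and 11.5 over the 33 other regions, of which 27 were positive. These medians include the regions that entered the fit only through RA, of which those at −18.2 and −14.0 kb lie on RAR sites. Within skap1 the median was 44.5 over 11 regions, against 19.9 over 21 regions before the gene and 6.64 over 11 regions after it. Where all RA and BMS493 samples had a peak, in 14 regions of the locus, the ratio of the mean pileup per 1000000 tags ran from 1.07 at +86.1 kb to 2.87 at +5.8 kb, with a median of 1.29, against the median of 1.15 over the series given above. On the rest of chromosome 12, 84 tested regions on RAR sites had a median of 14.8, with 76.2% positive and 5 called higher in RA (5.95%). Of the 4080 tested regions of the chromosome off RAR sites, 53.4% were positive.

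**Figure D4:**
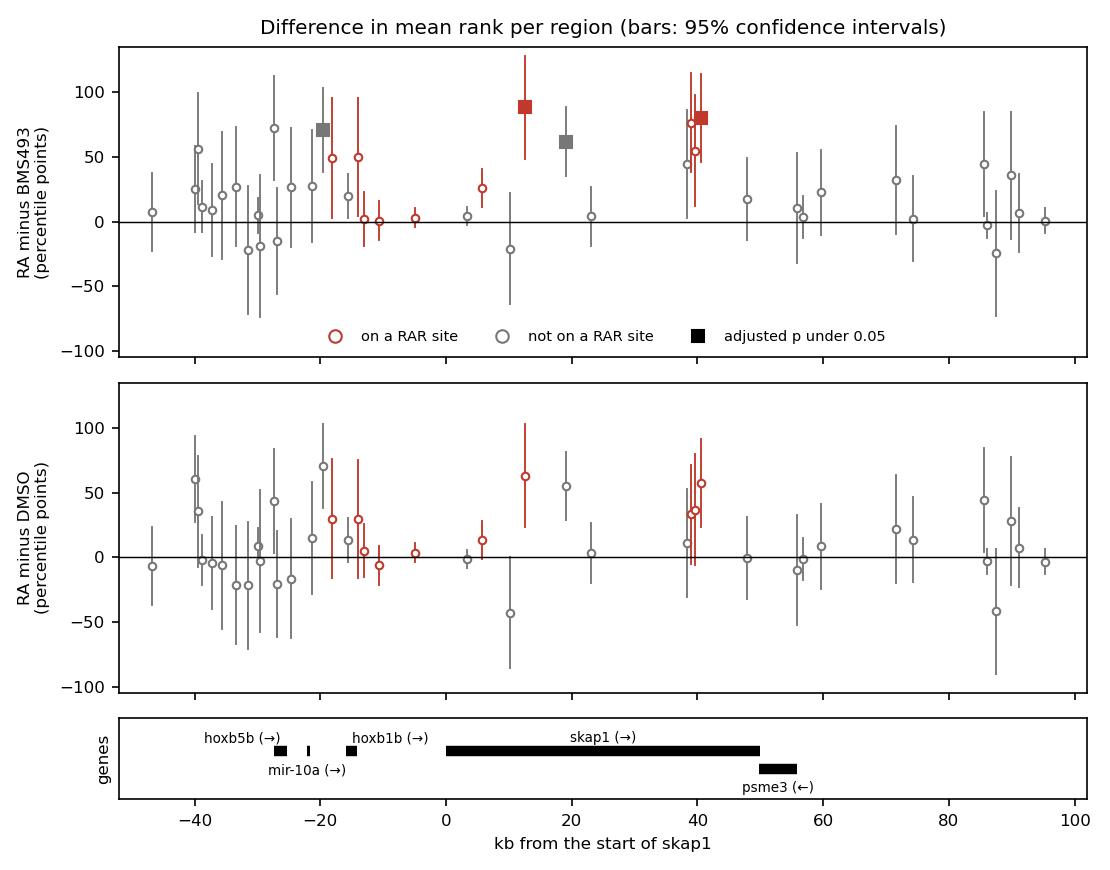
Difference in mean rank for the 43 tested regions (points, with 95% confidence intervals from limma) for RA minus BMS493 (top) and RA minus DMSO (middle). The x axis is the distance from the start of skap1 in kb, with the genes that were looked up below. Red points lie on RAR sites, and filled squares passed the adjusted threshold, 4 regions in the top panel and 0 in the middle one. The fit does not bound the ranks, so that some intervals run past the largest possible difference.

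The second comparison, RA against DMSO, set added ligand against the solvent. It called 0 of the 43 regions in either direction, against 0.194% of all regions tested called higher and 0.0362% called lower, and the lowest adjusted p was 0.0699 (limma). An unadjusted p under 0.05 was found in 7 regions with RA higher (16.3%, against 4.44%) and in 0 with RA lower (against 2.54%). Of the 7, those at −40.0, −19.6, +19.0 and +85.5 kb had too few calls outside RA for the filter. They entered the fit only through RA samples, so that this share is no independent support. The differences were 63.2 at +12.5 kb (SE 18.9, adjusted p = 0.249), 57.2 at +40.6 kb (SE 16.2, adjusted p = 0.202), 55.1 at +19.0 kb (SE 12.5, adjusted p = 0.0805), 70.5 at −19.6 kb (SE 15.5, adjusted p = 0.0699) and 43.8 at the start of hoxb5b (SE 19.1, adjusted p = 0.656). Ranks did not overlap, with RA above, in 11 regions (25.6%, against 5.27%) and with RA below in 0 (against 1.97%). Of the 11, those at −40.0, −19.6 and +19.0 kb likewise entered only through RA. The −40.0 and −19.6 kb regions had a peak in every RA and no DMSO sample, 2 of 52 (3.85%), against 0.686%, and 0 had the reverse, against 0.254%. Without RA replicate 3 or without DMSO replicate 2 the 2 became 4.

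The median difference over the locus was 7.39, against 0 over all regions tested. The 10 tested regions on RAR sites had a median of 29.7, with 9 positive, and the 33 others a median of −0.247, with 16 positive. Both medians again include regions that entered the fit only through RA. Regions on RAR sites elsewhere on chromosome 12 had a median of 12.0, with 79.8% positive, against 52.1% of the regions of the chromosome off RAR sites. With every list shortened to the length of that of DMSO replicate 1, this comparison called 3 regions of the locus higher in RA, namely the start of hoxb5b and the +12.5 and +40.6 kb regions. Shortening kept the peaks with the highest −log10(q), and a dropped peak took the rank of 0. In the full lists the DMSO peaks there had a −log10(q) of 4.23 to 4.42, 3.44 to 6.33 and 2.75 to 3.44, and the RA peaks at least 8.59, 9.85 and 5.45. Which peaks were dropped is not given, so that these calls are no independent support. With calls only where a peak covered 50% of a region, it called 1, at +40.6 kb.

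The third comparison, BMS493 against DMSO, asked what the inverse agonist did without added ligand. It called 0 regions of the locus in either direction (limma), against 0% of all regions tested called higher and 0.000787% called lower, which is 1 region. Of the 43 regions, 34 ranked lower in BMS493 and 7 higher, with a median difference of −12.7, against 0 over all regions tested. No share of negative differences over all regions stands beside these counts. On RAR sites the median was −18.6, with 8 of 10 negative, and all 11 tested regions within skap1 were negative. Among these, the −18.2, −14.0, +12.5, +19.0, +40.6 and +47.8 kb regions had no BMS493 call, so that no positive difference was possible. Elsewhere in the locus, the −39.5, −24.7 and +59.6 kb regions likewise had no BMS493 call and counted as lower. Of the regions named here, those at −39.5, −18.2, −14.0, +19.0 and +59.6 kb entered the fit only through RA. The 84 tested regions on RAR sites elsewhere on chromosome 12 had a median of −0.714, with 36.9% positive.

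An unadjusted p under 0.05 was found at −40.0 kb with BMS493 higher (2.33%, against 0.786%), and at −33.4 and +38.9 kb with BMS493 lower (against 0.989%), where mean ranks fell by 48.6 and 43.3. The −40.0 kb region had no DMSO or NE call and entered the fit only with its RA calls. No negative difference was possible there, so that its share is no independent support. Ranks lay below those of DMSO without overlap in 2 regions (4.65%, against 1.15%), at +3.3 and +10.1 kb. The regions at −33.4, +3.3 and +10.1 kb are named because their values stood out, not by a rule. The +3.3 kb region ranked 86.6, 88.6 and 88.8 in BMS493, against 91.7, 96.0 and 94.8 in DMSO. Calls alone separated these conditions in 0 regions, against 0.105% of all regions present only in BMS493 and 0.11% only in DMSO. RA, BMS493 and DMSO share samples across these comparisons, so that their differences are not independent of each other.

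The fourth comparison, DMSO endoderm against NE, set endoderm against the other cells of the embryo. It called 0 regions of the locus in either direction, against 2.16% of all regions tested called higher and 4.91% called lower, and the lowest adjusted p was 0.0605 (limma), at −13.0 kb, with a difference of 32.1 (SE 9.85). DMSO replicate 1 and NE replicate 2 overlapped there, at ranks of 74.0 and 74.8. With every list shortened to the same length, all NE samples lost this peak and the region was called higher in DMSO (limma, adjusted p = 1.11e-05), as was the +91.1 kb region (adjusted p = 0.00882). Leaving out DMSO replicate 1 gave 2 calls higher in DMSO, and leaving out NE replicate 2 or NE replicate 3 gave 1. An unadjusted p under 0.05 was found in 3 regions with DMSO higher (6.98%, against 5.86%), the others being the start of hoxb5b and the +91.1 kb region. It was found in 1 with DMSO lower (against 12.5%), at +23.1 kb, where DMSO ranked 0, 0 and 11.9 and NE 33.9, 36.2 and 43.7. Ranks did not overlap in 1 region with DMSO above (2.33%, against 4.68%), at +10.1 kb, and in 2 with DMSO below (4.65%, against 13.1%), at −24.7 and +23.1 kb. The regions at −24.7, +10.1, +23.1 and +91.1 kb were named after their values had been seen. The median difference was −0.249, against −3.78 over all regions tested, and calls alone separated the conditions in 0 regions, against 0.926% of all regions present only in DMSO and 2.37% only in NE.

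Known RAR target loci were taken with the same flanks for comparison, without a test between loci. At dhrs3a, which encodes a retinaldehyde reductase, RA was called higher than BMS493 in 5 of 16 tested regions, and at cyp26a1, which encodes an RA-degrading enzyme, in 2 of 19. Across hoxb1a to hoxb4a of the hoxba cluster, RA was called higher in 2 of 60. At gata6, used above for the check of the sort and named by the study as a direct RAR target, it was higher in 0 of 26. The median differences were 44.9 at dhrs3a, 21.2 at cyp26a1, 15.2 at gata6 and 4.27 at hoxb1a to hoxb4a, beside 19.9 at skap1. Against DMSO, RA was called higher in 1 region each at dhrs3a and at hoxb1a to hoxb4a, and in 0 at cyp26a1 and at gata6, as at skap1. Over all regions tested, RA was called higher than BMS493 in 0.625% and higher than DMSO in 0.194%. Regions of these loci passed the same filter, which RA samples alone could meet, so that their counts and medians are no independent support.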

How the data were processed

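ATAC-seq was done on 12 samples, 3 per condition, which the study describes as separate cell preparations. Whether they came from separate clutches is not given in the sources used here, so that p-values measure the spread between these preparations. The sample labels gave the conditions. In the NE lists the headers count replicates as 2, 3 and 4, whereas the labels, which were followed, have 1, 2 and 3.

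Reads were aligned by the authors to Zv9 with Bowtie2, and each sample was called alone with MACS2 2.1.1.20160309 at a q-value of 0.05, without control library. Tags were shifted by 40 bp and extended to 80 bp, and duplicates were reduced to 1 per position. The pileup that the authors deposited is a signal, unscaled between samples. With 1 tag per position and strand it cannot exceed 160, and the highest values of the lists were 140 to 158. The shift as the headers give it moves tags towards their 3′ end, so that summits need not mark insertion sites. The deposited fold enrichment is a ratio to the local background of the same sample, and the deposited significance is a −log10 of the p-value or q-value, of which only that of q entered an alternative. Signal under the threshold is not listed.

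Peaks of all lists were merged where they overlapped by at least 1 bp (Python 3.11.15, pandas 2.3.3), and the merged regions were checked against bedtools 2.31.1. Ranks were compared with limma 3.58.1 in R 4.3.3, with trend and robust options, in 1 fit of all 12 samples over regions called in at least 3 samples, and the threshold was a Benjamini-Hochberg adjusted p of 0.05. An exact permutation test of 3 against 3 samples cannot go under a two-sided p of 0.1 and was not used. The fit was also run on simulated lists in which some regions were set to fall in both BMS493 and DMSO. The outcome is not reported here, and it does not show how the fit behaves on these data. Positions of genes, introns, conserved elements and RAR sites on Zv9 were those of the study's tables. Regions were named if they overlapped a RAR site, passed the adjusted threshold, were called in all samples of one condition and none of another, or held the start of hoxb5b, mir-10a, hoxb1b, skap1 or psme3, which gave 18 regions. No sequence is printed, since no genome of this build was used. The locus, its window and the lists were chosen with earlier results of these data known.

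The alternatives tried were lists of the same length, peaks with a −log10(q) of 3 or more, peaks within 100 bp merged, calls only where a peak covers 50% of the region, no filter on samples, chromosomes 1 to 25 without scaffolds, ranks of −log10(q), log2 of the pileup per 1000000 tags kept plus 1, a replicate block, RAR sites within 250 bp, and each sample left out in turn.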

Additional observations from a re-analysis of the deposited data

How the results depend on the processing

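The direction of every named difference with an unadjusted p under 0.05 held wherever an alternative gave a value, and the counts of calls moved. Alternatives in which neither condition had a call were left out of this count. Where no sample of 1 condition had a call, as for BMS493 in the 4 called regions, the direction could not turn. The held direction is thus no sign of robustness there. RA above BMS493 gave 4 regions as reported, 2 with calls that cover 50% of a region, 2 with ranks of −log10(q), 7 with log2 of the pileup per 1000000 tags, 0 with no filter on the number of samples, and 0 to 6 when 1 sample was left out. At +5.8 kb, where all lists had a peak, the log2 scale gave an adjusted p of 0.019 (limma), against 0.101 as reported. This region passed the threshold in 2 of 9 alternatives, with adjusted p-values (limma) from 0.0122 to 0.584. It passed in 0 of the 12 fits with 1 sample left out. RA above DMSO gave 0 regions as reported, 3 with equally long lists and 1 with calls that cover 50%. In both of these alternatives a dropped peak takes the rank of 0. DMSO above NE gave 2 with lists of the same length, 1 with calls that cover 50%, 1 with ranks of −log10(q) and 0 to 2 when 1 sample was left out, and DMSO below NE gave 1 with a −log10(q) of at least 3. BMS493 against DMSO gave 0 regions under every alternative.

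By calls alone, leaving out 1 sample gave 2 to 4 regions present in RA and not DMSO, 5 to 11 in RA and not BMS493, 0 to 2 in DMSO and not BMS493, and 0 to 1 in each other direction (the reverse of both, BMS493 and not DMSO, and DMSO and NE both ways). Lists of the same length gave 1 region in DMSO and not NE. The mean number of regions called fell to 25.7 in RA, 15.3 in BMS493, 20.7 in DMSO and 19.7 in NE with lists of the same length. With calls that cover 50% it was 29.0 in RA, 17.3 in BMS493, 20.7 in DMSO and 23.0 in NE. Regions within 250 bp of a RAR site numbered 13, against 11 that overlapped one. The cause of these changes was not tested.

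The replicate number was also fitted as a block. Correlations of same-numbered samples were 0.000592 to 0.206 for BMS493 and DMSO and from −0.154 to 0.0725 in the other comparisons, and since not every pair exceeded 0.1 the numbers were not taken to pair the samples. With the block, RA above BMS493 gave 0 regions and DMSO above NE 1.

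Signal under the threshold of the lists is not given, the lists held 51301 to 143755 peaks, and ranks correct for this only in part. With 3 samples a condition, the adjusted p-values of the 4 called regions lay between 0.0304 and 0.0416, close to the threshold.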
